A study of Citrullus lanatus with 6 samples.

Results

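Neighbouring watermelon genes that lie head to head, the first on the minus strand and the second on the plus strand, were examined for how far they changed together under drought. The 18861 annotated genes of the count table were sorted by chromosome and start, which gave 18849 adjacent pairs. A pair was taken when 0 to 1000 bases separated the end of the first gene from the start of the second. This held for 199 of 4692 adjacent head-to-head pairs (4.24%), with 398 genes in all. Head-to-head pairs that overlapped were not taken. For comparison, 661 of 9466 adjacent same-strand pairs and 1084 of 4691 adjacent tail-to-tail pairs lay at the same distance.

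Leaves of watermelon cultivar Crimson Sweet were sampled from 3 watered control plants and from 3 plants under drought, all of them 89 days old, and 1 RNA library was made from each plant. Pots of the control were held at 95 ± 5% of relative water content and those of the drought treatment at 35 ± 5%, and leaves were taken 8 days after the treatment began (8 DAT). All plants grew in pots with the same medium and fertilizer. RNA came from bulk leaf tissue, so that fewer cells of a type and less RNA per cell cannot be told apart. Library totals were 17907062 to 22351455 read counts. Control replicate 2 stood apart from the other libraries, and called genes given in full below are followed by the libraries without which their call was lost.

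Genes in head-to-head order share the stretch of DNA in front of both their transcription starts. Where that stretch is short, the promoters of both genes can lie within it, and such arrangements are known as bidirectional promoters in plants, animals and yeast. Same-strand neighbours have a promoter between them only for the downstream gene, and tail-to-tail neighbours have none between them. The gene ends used here are those of the gene models, so the true transcription starts can lie elsewhere.

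The gap between head-to-head partners had a median of 373 bases, with quartiles of 161.5 and 759.5 bases and extremes of 8 and 994 bases. It was under 250 bases in 74 pairs, 250 or more but under 500 bases in 42, from there to under 750 bases in 32, and longer in 51. Pairs were found on every chromosome, from 10 on chromosome 4 to 26 on chromosome 11, and 1 pair lay on what the files call chromosome 0. No gene model outside the annotation lay in any of the gaps, but in 5 pairs a listed gene that was not in the count table is numbered between the partners. The numbering also skips in other pairs, such as ClCG05G023660 and ClCG05G023690, where no listed gene is numbered between.

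At the upper limit of the rule, ClCG11G001160 and ClCG11G001170 lay 994 bases apart and ClCG01G001360 and ClCG01G001370 lay 983 bases apart. The log2 fold changes of the former pair were -0.37 and 0.23, and that of ClCG01G001360 was -0.06, while ClCG01G001370 had too few counts for a test. Just outside, ClCG03G000270 and ClCG03G000280 (1.38 and 0.998) and ClCG11G013570 and ClCG11G013580 (-2.07 and 0.67) each lay 1008 bases apart. At the lower limit, ClCG08G017430 and ClCG08G017440 lay 8 bases apart, the latter at -0.11 and the former too low for a test. ClCG02G011570 and ClCG02G011580 overlapped with a distance of -1, the latter at a log2 fold change of 0.82.

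Of the 398 genes, 329 passed the filter on low counts and were tested (82.7%, against 83.7% of all annotated genes). Both partners were tested in 134 pairs. Only 1 partner was tested in 61 pairs and neither in 4. Averaged over the 6 plants, the median level of the tested members was 10.7 FPKM (fragments scaled by gene length and library size), against 11.5 FPKM over all 16318 tested genes. By level the head-to-head genes were thus close to the typical leaf gene.

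Under drought 27 members were called at an adjusted p below 0.05 in edgeR's quasi-likelihood test, 15 of them higher and 12 lower than in the control. This is 8.21% of the tested members, whereas 13.4% of all tested genes were called. The share called higher was 4.56% against 5.31% of all tested genes, and the share called lower was 3.65% against 8.08%. At an unadjusted p below 0.05 there were 76 of the 329 tested members, which compares with 31.5% of all tested genes. In 77 members every drought plant was above every control plant (23.4%, against 19.9% of all tested genes) and in 29 every drought plant was below (8.81%, against 18.5%). Together this was 32.2% of the tested members and 38.4% of all. These shares are descriptions, and the difference between members and other genes was not tested.

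The number called depended on single libraries. DESeq2 called 53 of the 329 tested members, against 25.2% of all tested genes, and edgeR without control replicate 2 called 65, against 26.1%. Fits that left out a library filtered low counts anew. Among head-to-head pairs with both partners tested, 16.0% of genes were called by DESeq2 and 21.4% without control replicate 2. That share was 0.685% to 1.77% without control replicate 1 or any drought replicate. Leaving out control replicate 1 left 3 called members (3.85% of all genes), and drought replicates 1, 2 and 3 left 2, 5 and 2 (2.53%, 3.02% and 1.87%). Without control replicate 3 there were 27 (13.7%), of which 17 were among the 27 called with all libraries. Of those 27, ClCG01G002290 and ClCG03G005590 passed whichever library was left out, and the other 25 lost their call without drought replicate 1 and without drought replicate 3. With the replicate number as a block, 23 members were called (14.3% of all genes).

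The tested members leaned upward. Their median log2 fold change was 0.16, against -0.03 over all tested genes, and 195 of them (59.3%) were above 0, against 48.5% of all. Scaling by library totals in place of TMM moved the median of all genes by 0.16 and that of the members by 0.17, so that the medians became 0.13 and 0.33 and the distance between them stayed. With that scaling, 17 of the 329 tested members were called higher and 6 lower, against 5.73% and 5.26% of all tested genes. Over all genes the split moved from 866 higher and 1319 lower to 935 and 858. The median size of the change, without its sign, was 0.43 for members and 0.55 for all tested genes. Called members were spread over the distances, with 10 of 122 tested members in gaps under 250 bases (8.20%) and 7 of 83 in gaps of 750 bases or more (8.43%). Their directions differed, with 8 higher and 2 lower in the former gaps and 1 higher and 6 lower in the latter. This difference was not tested.

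The 27 called members belonged to 25 pairs. Both partners were called in 2 pairs, a single partner of 2 tested ones in 20 pairs, and in 3 pairs the other partner was too low for a test. Hence 20 of the 22 tested pairs with a call (90.9%) had a single partner called, which was the share among all adjacent pairs as well (3021 of 3320, 91.0%). Among these 20 neighbours, 15 had a log2 fold change of the same sign as the called gene and 5 of the other sign. Their changes ran from -1.30 to 1.49 with a median size of 0.29, and the median size of the called genes was 1.11. The split of signs was not formed for other adjacent pairs, so it has no share to stand against.

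In 1 pair on chromosome 6 both genes rose. ClCG06G018250, described as a bHLH transcription factor (a family of DNA-binding proteins), lies at 31205227 to 31206498 on the minus strand. ClCG06G018260, described as a polynucleotide adenylyltransferase, an enzyme that adds adenosines to the end of RNAs, lies 568 bases away at 31207066 to 31211935 on the plus strand. ClCG06G018250 had 1, 0 and 15 counts in control replicates 1 to 3 and 808, 742 and 620 in drought replicates 1 to 3. ClCG06G018260 had 22, 20 and 13 counts in the control and 125, 191 and 78 under drought. Neither gene had overlapping groups, and the bHLH gene went from nearly silent to well expressed.

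The bHLH gene rose from 0.30 ± 0.474 to 31.0 ± 3.01 CPM (counts scaled by TMM-adjusted library size, mean ± SD, n = 3), with a log2 fold change of 6.71 (SE 1.0, edgeR adjusted p = 0.0106). Its partner rose from 0.963 ± 0.226 to 5.54 ± 2.08 CPM, with a log2 fold change of 2.52 (SE 0.46, edgeR adjusted p = 0.0180). Direction was thus shared, while the estimated sizes differed. The log2 ratio of the second gene to the first was 3.11, 3.50 and -0.18 in the control plants and -2.67, -1.94 and -2.96 in the drought plants. The ratio differed between treatments by -4.66 (SE 0.99, limma adjusted p = 0.0352), and its adjusted p ran from 0.00694 to 0.143 over 10 alternatives. It passed in 4 of them. Among those missed were the edgeR interaction test (adjusted p = 0.0645) and limma with a prior count of 0.5 (adjusted p = 0.0551), so the unequal size depends on the setting. Without control replicate 3, which held 15 of the 16 control counts of the bHLH gene, its log2 fold change was 9.94, and without control replicate 2 it was 6.11. The bHLH gene lost its call without drought replicates 1 and 3 (edgeR adjusted p = 0.0512 and 0.0518), and its partner without control replicate 1 or any drought replicate (0.0550 to 0.0832).

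In the other pair, on chromosome 4, both genes fell. ClCG04G006150 (20570980 to 20571573, minus strand) is described as an unknown protein, and ClCG04G006160 (20572501 to 20573454, plus strand) as a member of the DUF1191 family, 928 bases away. ClCG04G006150 had 242, 53 and 244 counts in the control and 21, 32 and 35 under drought. ClCG04G006160 had 815, 89 and 743 counts in the control and 54, 83 and 71 under drought. In both genes control replicate 2 was far below the other controls, and for ClCG04G006160 its count was close to that of drought replicate 2.

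On the CPM scale, which adjusts for library size, the groups of both genes were still apart. ClCG04G006150 fell from 9.79 ± 6.26 to 1.27 ± 0.359 CPM (n = 3), with a log2 fold change of -2.95 (SE 0.67, edgeR adjusted p = 0.0323). ClCG04G006160 fell from 30.0 ± 22.3 to 2.97 ± 0.590 CPM, with a log2 fold change of -3.33 (SE 0.80, edgeR adjusted p = 0.0375). With the replicate number as a block, the adjusted p of ClCG04G006160 was 0.0602, so that only the chromosome 6 pair was called for both partners. Both genes of the chromosome 4 pair lost their call without any library other than control replicate 2, at edgeR adjusted p = 0.0616 to 0.12 for ClCG04G006150 and 0.0679 to 0.134 for ClCG04G006160. Leaving out each library in turn gave 0 to 5 pairs called for both partners. The 5 came without control replicate 2 (3.57%), where 4.75% of all adjacent pairs were called for both partners in the same direction.

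**Figure D1:**
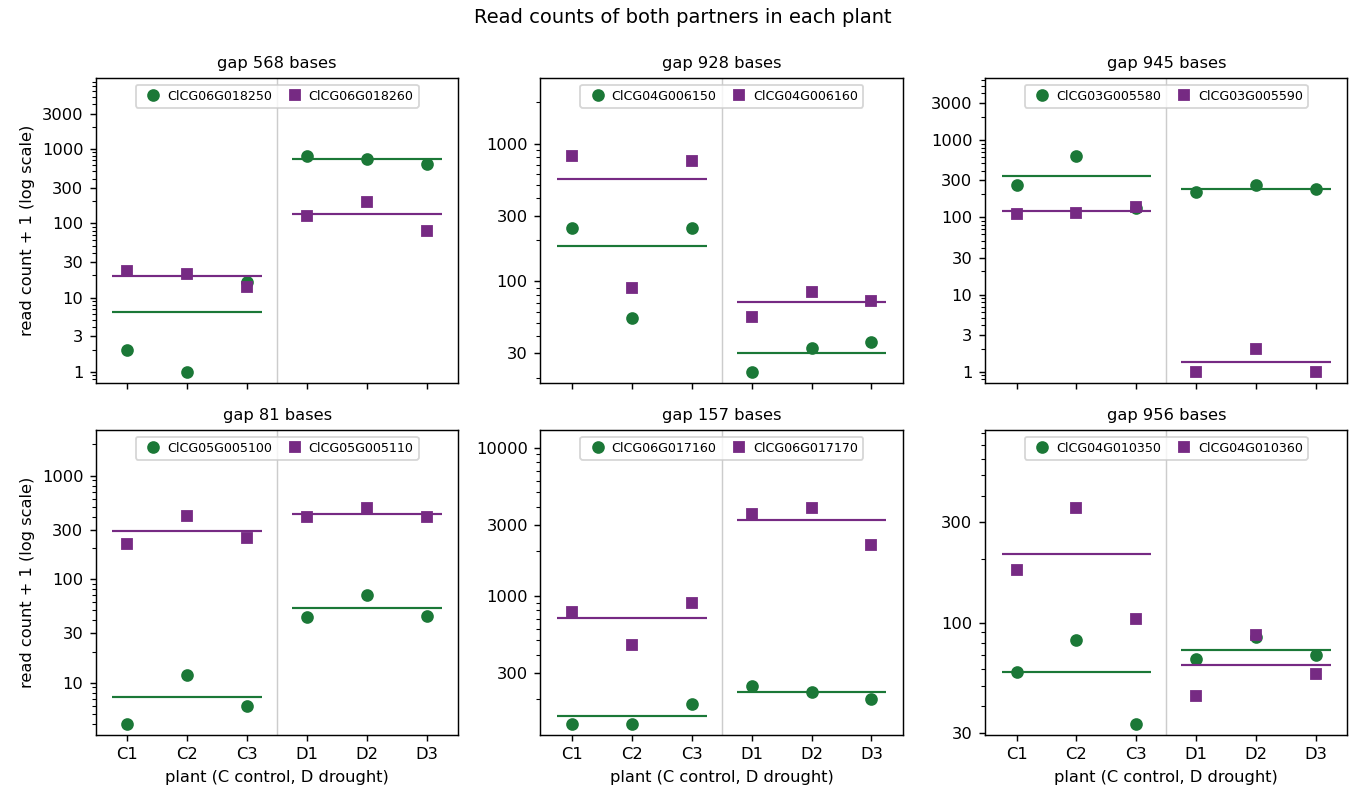
Read counts plus 1 (log scale) of both partners in each plant, for the 2 pairs with both partners called and the other 4 pairs with the lowest adjusted p of the ratio test. C1 to C3 are control and D1 to D3 drought plants, circles are the first and squares the second partner, and lines are group means. Both partners were called at gaps of 568 and 928 bases, whereas a single partner was called in the other 4 panels.

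No head-to-head pair was called in opposite directions by edgeR or by DESeq2, which called 2.52% of all adjacent pairs so. At an unadjusted p below 0.05 in edgeR, 8 pairs had both partners past it in the same direction (5.97%, against 6.73% of all adjacent pairs) and 1 in opposite directions (0.746%, against 4.17%). Same-strand pairs gave 43 and 9 of 449, and tail-to-tail pairs 43 and 19 of 849. The opposite pair was ClCG07G013620 (690, 1073 and 962 counts in the control, 1771, 1873 and 1498 under drought) and ClCG07G013630 (525, 1941 and 596 in the control, 456, 790 and 372 under drought). The groups of ClCG07G013630 overlapped, and control replicate 2 was its highest plant. The share of pairs with both partners called in the same direction was 1.49% of the 134 tested head-to-head pairs. It was 1.64% of all 13390 adjacent pairs with both partners tested, and 0.597% of those were called in opposite directions. Among same-strand pairs within 1000 bases it was 3.56% (16 of 449, with 1 pair in opposite directions), and among tail-to-tail pairs 1.06% (9 of 849, with 2).

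Counting partners whose groups did not overlap gave more pairs. Both partners were apart in the same direction in 15 of 134 head-to-head pairs (11.2%, against 9.17% of all adjacent pairs), of which 14 were higher and 1 was lower under drought. The split was 635 higher and 593 lower over all adjacent pairs and 36 and 30 over same-strand pairs, and its difference was not tested. Both were apart in opposite directions in 1 head-to-head pair (0.746%), against 6.37% of all adjacent pairs. Same-strand pairs gave 66 in the same direction (14.7%) and 19 in opposite directions (4.23%). Tail-to-tail pairs gave 72 (8.48%) and 42 (4.95%).

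The next comparison asked directly whether the partners of a pair changed unequally. For each pair the log2 ratio of the partners' CPM was formed in every plant and compared between treatments with limma over all 1432 tested pairs within 1000 bases. The ratio changed in 6 of 134 head-to-head pairs (4.48%), against 7.89% of all pairs tested. It changed in 27 of 449 same-strand pairs (6.01%) and 80 of 849 tail-to-tail pairs (9.42%). At an unadjusted p below 0.05 there were 31 head-to-head pairs (23.1%), and 27.7% of all pairs passed that level. An edgeR interaction test gave 4 head-to-head pairs (2.99%), against 5.59% of all. In the median head-to-head pair the partners' changes differed by 0.57 on the log2 scale, and the median was 0.55 for same-strand and 0.85 for tail-to-tail pairs.

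The most unequal head-to-head pair was ClCG03G005580 and ClCG03G005590 on chromosome 3, 945 bases apart. ClCG03G005590 (5790307 to 5796402, plus strand), described as an endonuclease, an enzyme that cuts nucleic acids within the strand, had 108, 112 and 135 counts in the control and 0, 1 and 0 under drought. ClCG03G005580 (5786425 to 5789362, minus strand) had 261, 624 and 130 counts in the control and 210, 263 and 229 under drought. The endonuclease gene was thus nearly absent from the drought libraries, while the drought values of its neighbour lay within the range of the control.

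Over the group, 355 counts of ClCG03G005590 in the control stood against 1 under drought, a 437-fold ratio after scaling with a 95% exact interval of 77.9 to 17308, which covers counting error only. Its edgeR adjusted p was 0.00373, and it passed in all 10 alternatives. The log2 fold change of ClCG03G005580 was -0.78 (SE 0.49, edgeR adjusted p = 0.313). The log2 ratio of the second gene to the first was -1.26, -2.46 and 0.05 in the control and -6.57, -6.31 and -6.81 under drought. The difference of -5.35 (SE 0.69, limma adjusted p = 0.00783) passed in 10 of 10 alternatives, and of the 6 pairs only this one did so.

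A short gap did not go with equal change in every pair. ClCG05G005100 (4936028 to 4938507 on chromosome 5, minus strand), described as a pentatricopeptide repeat protein, a family that binds organelle RNAs in plants, lies 81 bases from ClCG05G005110 (4938588 to 4946045, plus strand). ClCG05G005100 had 3, 11 and 5 counts in the control and 42, 70 and 43 under drought. ClCG05G005110 had 217, 403 and 247 counts in the control and 400, 487 and 394 under drought. All drought plants were above all controls for the former gene, while a control plant of the latter exceeded a drought plant.

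The log2 fold change was 2.72 (SE 0.63, edgeR adjusted p = 0.0341) for ClCG05G005100 and 0.28 (SE 0.25, edgeR adjusted p = 0.498) for ClCG05G005110. Their ratio changed by -2.21 (SE 0.44, limma adjusted p = 0.0285, 0.0161 to 0.146 over the alternatives). ClCG05G005100 lost its call without any library other than control replicate 2 (edgeR adjusted p = 0.0675 to 0.142), and the ratio without control replicate 1 or any drought replicate (limma adjusted p = 0.104 to 0.146). ClCG06G017170 (30366821 to 30372296 on chromosome 6, plus strand), described as the zinc metalloprotease FtsH 1, which in Arabidopsis takes part in the repair of photosystem II, lies 157 bases from ClCG06G017160 (30361628 to 30366664, minus strand). The FtsH 1 gene had 772, 462 and 896 counts in the control and 3562, 3924 and 2196 under drought. ClCG06G017160 had 136, 135 and 186 counts in the control and 245, 223 and 199 under drought. Both were higher in every drought plant by raw count. After scaling by TMM-adjusted library size the groups of ClCG06G017160 overlapped, while those of the FtsH 1 gene stayed apart.

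The log2 fold change was 1.84 (SE 0.35, edgeR adjusted p = 0.0210) for the FtsH 1 gene and 0.23 (SE 0.28, edgeR adjusted p = 0.617) for its neighbour. The ratio changed by 1.64 (SE 0.35, limma adjusted p = 0.0374, 0.0171 to 0.154 over the alternatives). The FtsH 1 gene lost its call without control replicate 1 or any drought replicate (edgeR adjusted p = 0.0566 to 0.0793). ClCG04G010360 (25303710 to 25308204 on chromosome 4, plus strand), described as receptor expression-enhancing protein 3, lies 956 bases from ClCG04G010350. It had 177, 350 and 103 counts in the control and 44, 86 and 56 under drought. ClCG04G010350 had 57, 82 and 32 counts in the control and 66, 84 and 69 under drought, so its groups overlapped while those of its partner did not.

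ClCG04G010360 had a log2 fold change of -2.03 (SE 0.48, edgeR adjusted p = 0.0360) and ClCG04G010350 one of 0.08 (SE 0.42, edgeR adjusted p = 0.918). The ratio changed by -2.04 (SE 0.44, limma adjusted p = 0.0374, 0.0374 to 0.147 over the alternatives). ClCG04G010360 lost its call without control replicate 1 or any drought replicate (edgeR adjusted p = 0.0922 to 0.139). The remaining pair of the 6, named after its values were seen, was ClCG01G020320 and ClCG01G020330, 816 bases apart. Its ratio changed by -1.33 (SE 0.32, limma adjusted p = 0.0481, 0.0304 to 0.186 over the alternatives), and neither partner was called alone, at log2 fold changes of 0.46 and -0.95. With the replicate block the limma adjusted p of the FtsH 1 pair was 0.0503, of the ClCG04G010350 pair 0.0513 and of the ClCG01G020320 pair 0.0675. These 3 ratios passed without control replicate 2 and missed the threshold without each other library, and that of the bHLH pair missed it without control replicate 1 or any drought replicate (0.0995 to 0.143). Leaving out 1 library gave 1 to 22 pairs with a changed ratio, with 22 of 140 when control replicate 2 was left out (22.6% of all pairs).

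Of the called members whose partner was too low for a test, the largest was ClCG01G002290 (2227624 to 2236518 on chromosome 1, minus strand), described as respiratory burst oxidase protein F. In Arabidopsis this enzyme makes superoxide at the plasma membrane and takes part in abscisic acid responses of guard cells. It had 1234, 1048 and 680 counts in the control and 133, 101 and 93 under drought, so every drought plant was far below the lowest control. It fell from 51.9 ± 14.1 to 4.67 ± 0.851 CPM, which is -3.47 on the log2 scale (SE 0.29, edgeR adjusted p = 0.00349), and passed in all 10 alternatives. Its neighbour ClCG01G002300, 179 bases away, had 15, 29 and 3 counts in the control and 4, 0 and 0 under drought, which was too low for a test.

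The other called genes of this kind were ClCG10G014730 and ClCG08G010950. ClCG10G014730, a P-loop nucleoside triphosphate hydrolase by description, had 2324, 6176 and 1109 counts in the control and 317, 905 and 409 under drought, while its neighbour had 3 counts in 1 plant and 0 in the others. ClCG08G010950, described as a Pollen Ole e 1 allergen and extensin family protein, had 2341, 672 and 1685 counts in the control and 518, 280 and 374 under drought, while its neighbour had 9 counts or fewer in every plant. Their log2 fold changes were -2.82 (SE 0.65) and -2.33 (SE 0.51), with edgeR adjusted p = 0.0337 and 0.0295. ClCG10G014730 lost its call without control replicate 1 or any drought replicate (0.0718 to 0.138) and stood at -2.02 without control replicate 2. ClCG08G010950 lost its call without any library other than control replicate 2 (0.0526 to 0.117). Hence each of these called genes lay beside a head-to-head neighbour with few counts. That of ClCG01G002290 has an exon length of only 300 bases and held 47 counts over the control and 4 over the drought plants.

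ClCG06G007230, described as a caleosin, a calcium-binding protein of oil bodies, rose beside a neighbour that was not called. It had 3, 0 and 3 counts in the control and 34, 59 and 26 under drought, with a log2 fold change of 3.89 (SE 0.94, edgeR adjusted p = 0.0389). The call was lost with the replicate block (edgeR adjusted p = 0.0657) and without any library other than control replicate 2 (0.0618 to 0.151), and without that library the log2 fold change was 3.30. Its neighbour ClCG06G007220, 484 bases away, had 894, 1409 and 524 counts in the control and 1394, 1919 and 1549 under drought. The groups of that neighbour overlapped by raw count, and its log2 fold change was 0.51 (SE 0.32, edgeR adjusted p = 0.313).

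ClCG10G014360, an unknown protein by description, fell beside ClCG10G014350, 109 bases away. It had 274, 322 and 267 counts in the control and 50, 123 and 61 under drought, a log2 fold change of -2.20 (SE 0.37, edgeR adjusted p = 0.0141). ClCG10G014350 had 153, 121 and 317 counts in the control and 151, 107 and 129 under drought, with overlapping groups and a log2 fold change of -0.94. ClCG05G024350, described as methylsterol monooxygenase 1, an enzyme of sterol synthesis, had 533, 443 and 405 counts in the control and 181, 336 and 192 under drought. Its log2 fold change of -1.28 (SE 0.29, edgeR adjusted p = 0.0314) was close to the -1.30 (SE 0.52) of its neighbour ClCG05G024360, 345 bases away, whose adjusted p in edgeR was 0.137. Without control replicate 1 or drought replicate 1 or 3 the calls of ClCG10G014360 (edgeR adjusted p = 0.0521 to 0.0809) and ClCG05G024350 (0.102 to 0.138) were lost.

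The other called genes changed by 0.85 to 1.23 in the higher direction or by -1.12 to -0.97 in the lower, at edgeR adjusted p values of 0.0135 to 0.0478. Among those higher were genes described as D-tyrosyl-tRNA deacylase (ClCG08G010600, 1.23), a cupin (ClCG02G002160, 1.17) and fructokinase-like protein 1 (ClCG10G021710, 1.10). Also higher were those for an MsbA-like permease (ClCG09G019270, 1.0), an asparagine synthetase domain protein (ClCG05G023660, 0.98), a DnaJ co-chaperone (ClCG02G019930, 0.88) and an aromatic amino acid decarboxylase (ClCG07G001440, 0.85). With the replicate block the permease and the co-chaperone missed the threshold (edgeR adjusted p = 0.0520 and 0.0500). The decarboxylase gene lies 31 bases from ClCG07G001450, the shortest gap of any called member, with 220, 187 and 195 counts in the control and 410, 529 and 408 under drought. ClCG07G001450 had 453 to 568 counts in the control and 693 to 784 under drought, a log2 fold change of 0.30 (SE 0.17, edgeR adjusted p = 0.284). Both genes were thus higher in every drought plant by raw count, and only the decarboxylase gene was called. That call was lost with the replicate block (edgeR adjusted p = 0.0808) and without any library other than control replicate 2 (0.0649 to 0.177).

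Descriptions were at hand for 45 members, 24 of them called. They come from tables of genes that the study called on these samples, so they are no independent evidence of a direction and say nothing of the other members. Lists were made by words in the descriptions, and few described members held any of them. The lists of protein folding, of ribosome and translation and of RNA handling held 2 tested members each, of which 1 in each was higher and none lower. The lists of transcription factors and of kinases and phosphatases held 3 members each, 2 of them tested and 1 higher. The single member for protein breakdown was higher (ClCG06G017170) and the single one for the cell wall was lower (ClCG08G010950). The single gene with a word for membrane transport, ClCG08G013090, was not called at a log2 fold change of -2.20. The words for photosynthesis, respiration, DNA and chromatin, and hormones matched no described member. The MsbA-like permease, the endonuclease and the telomere length regulation protein TEL2 homolog (ClCG03G003490, log2 fold change 0.89) held none of the words and are in no list. The medians of the lists with more than 1 tested member ran from 0.13 to 4.14. Each is a median of 2 genes that the study had called. For that reason neither these medians nor the counts called in the lists can be compared with all tested genes, of which 13.4% were called.

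The pair with the highest level in its lower partner was ClCG11G003820 and ClCG11G003830, 451 bases apart on chromosome 11. ClCG11G003830 (4073782 to 4075935, plus strand) is described as arginine decarboxylase, which makes agmatine from arginine in polyamine synthesis. It stood at 114, 198 and 104 FPKM in the control and 246, 234 and 241 FPKM under drought. ClCG11G003820 (4072891 to 4073331, minus strand) stood at 57.6, 108 and 49.1 FPKM in the control and 137, 117 and 153 FPKM under drought. The lowest drought plant was above the highest control in each gene, and control replicate 2 was the highest control of both.

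The log2 fold changes of this pair were 0.66 (SE 0.26, edgeR adjusted p = 0.133) for the decarboxylase gene and 0.80 (SE 0.26, edgeR adjusted p = 0.0833) for its neighbour. DESeq2 called both, which made 3 head-to-head pairs called in the same direction by that tool (2.24%), against 4.67% of all adjacent pairs. In the next pair by level, ClCG11G003040 stood at 64.2 to 95.4 FPKM over the 6 plants and ClCG11G003050 at 189 to 448 FPKM, with log2 fold changes of -0.24 and 0.40. In the third, ClCG06G016760 stood at 55.5 to 192 FPKM and ClCG06G016770 at 26.6 to 55.7 FPKM, with changes of 0.80 and 0.11. None of these 4 genes was called by edgeR, and the groups of each overlapped.

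Among pairs with both partners tested, the shortest gaps were 11, 21 and 24 bases. Across 11 bases, ClCG05G014350 stood at 3.11 to 7.40 FPKM and ClCG05G014360 at 24.5 to 74.1 FPKM. Across 21 bases, ClCG11G018950 stood at 40.3 to 99.2 FPKM and ClCG11G018960 at 3.80 to 9.76 FPKM. Across 24 bases, ClCG08G008040 stood at 62.5 to 79.3 FPKM and ClCG08G008050 at 3.71 to 9.42 FPKM. In each of these pairs a single partner was the higher in all 6 plants, and no member was called, with log2 fold changes from -0.74 to 0.17. Partners nearly touching could thus differ widely in level.

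Over all pairs, agreement of the drought change was described by the correlation of the partners' log2 fold changes. Pearson's r was 0.38 over the 134 head-to-head pairs (Spearman's rho 0.26) and 0.46 over the 449 same-strand pairs (rho 0.41). It was 0.15 over the 849 tail-to-tail pairs (rho 0.09). By Pearson's r, the order of head-to-head and same-strand pairs was not stable. It turned in 5 of the 6 fits that left out a library, to 0.410 against 0.395 without control replicate 1, 0.440 against 0.381 without control replicate 2, and 0.507 against 0.381, 0.378 against 0.365 and 0.439 against 0.360 without drought replicates 1, 2 and 3. By Spearman's rho, same-strand pairs stayed above in all 6 of these fits, at 0.347 to 0.393 against 0.278 to 0.351. So did their share of pairs with the same sign. Each of these fits filtered low counts anew, which gave 140 to 146 head-to-head and 477 to 492 same-strand pairs. Pairs more than 1000 bases apart gave r of 0.11 head-to-head, 0.13 same-strand and 0.02 tail-to-tail. Genes of a pair share their libraries and the spread between plants, and pairs are not replicates, so these values carry no test.

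**Figure D2:**
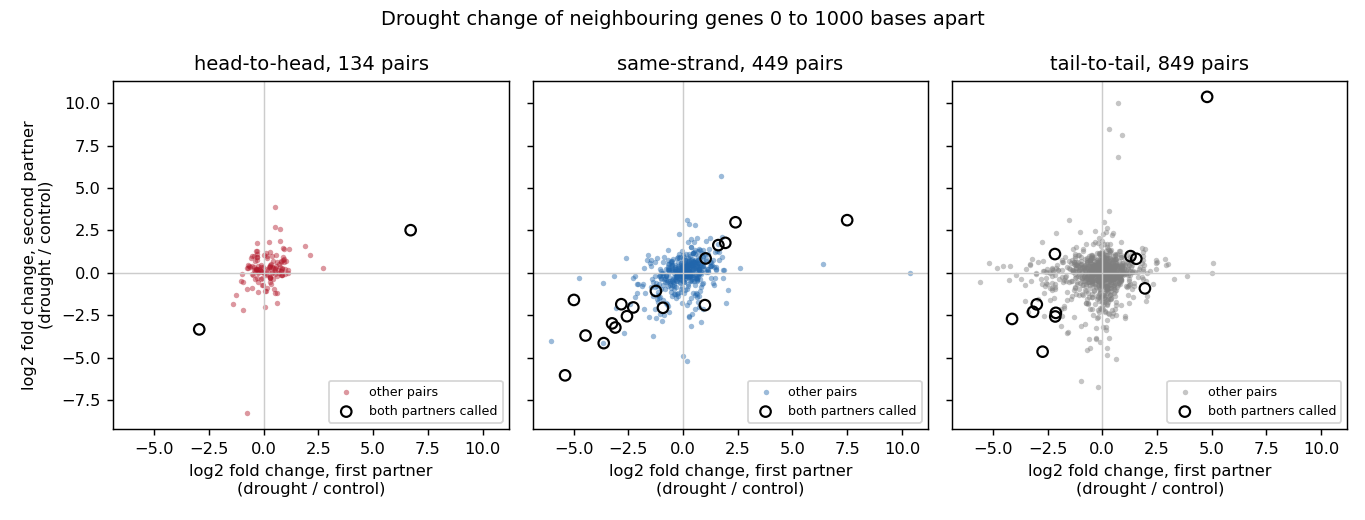
Log2 fold change (drought over control) of the second partner against that of the first for pairs 0 to 1000 bases apart, with 1 point for each pair. Black circles mark pairs with both partners called, which number 2 of 134 head-to-head, 17 of 449 same-strand and 11 of 849 tail-to-tail pairs.

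The head-to-head correlation leaned on a few pairs. Without the 2 pairs called for both partners r was 0.29, and without the 5 pairs with the largest change of either partner it was 0.28. Both settings were chosen after seeing the data. The same-strand r without its called pairs was 0.33. The partners had log2 fold changes of the same sign in 72 of 134 head-to-head pairs (53.7%), 295 of 449 same-strand pairs (65.7%) and 437 of 849 tail-to-tail pairs (51.5%). With scaling by library totals the head-to-head share was 63.4% and the same-strand share 67.0%.

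The r of neither orientation moved steadily with distance, and the difference between them in each bin was not tested. Under 250 bases r was 0.20 over 49 head-to-head pairs and 0.65 over 106 same-strand pairs. From 250 to under 500 bases it was 0.55 (n = 28) and 0.51 (n = 73), and from 500 to under 750 bases 0.76 (n = 22) and 0.36 (n = 115). From 750 to 1000 bases it was 0.37 (n = 35) and 0.43 (n = 155). The value of 0.76 rests on few pairs and includes the chromosome 6 pair called for both partners. Spearman's rho in the same head-to-head bins was 0.17, 0.51, 0.41 and 0.05.

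**Figure D3:**
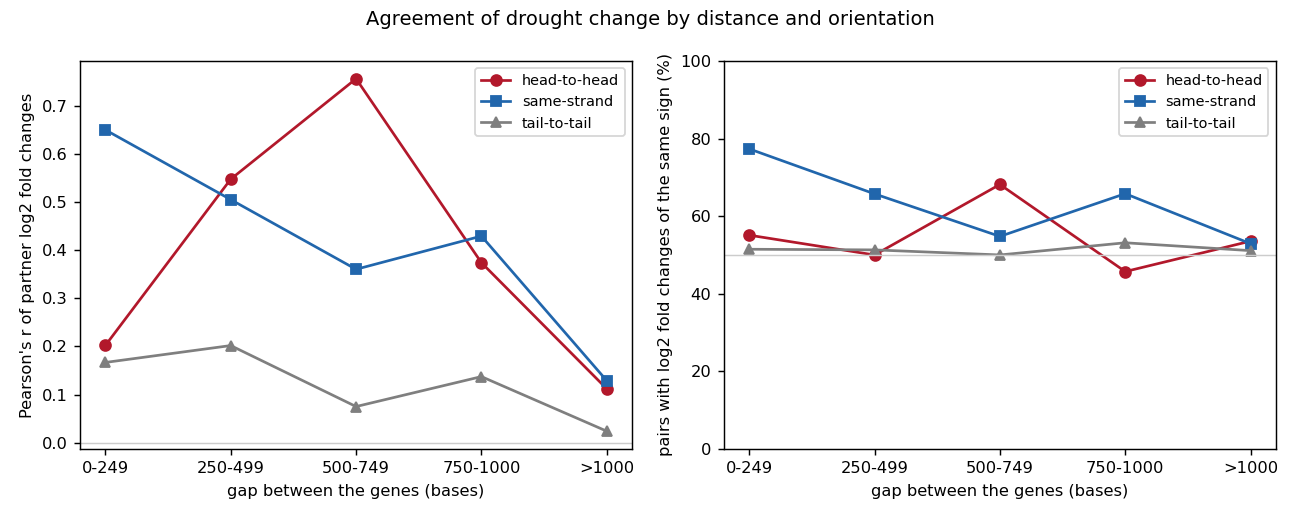
Agreement of the partners' drought change by gap length in bases for 3 orientations. The left panel gives Pearson's r of the log2 fold changes and the right panel the percentage of pairs with the same sign. Under 250 bases same-strand pairs stand at 0.65 and 77.4% and head-to-head pairs at 0.20 and 55.1%, and over the 4 bins neither r moves steadily in the order of the gaps.

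The share of the same sign under 250 bases was 55.1% for head-to-head and 77.4% for same-strand pairs. Weighting the same-strand pairs to the gap lengths of the head-to-head pairs gave them r = 0.50 and a share of 68.2%. The library kit named in the methods of the study does not mark strand, so reads that run past the end of a gene model into a near neighbour cannot be assigned by strand. How far such reads enter the agreement of near neighbours was not tested.

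Levels over the plants gave another order. In each plant, r between the partners' log2(FPKM + 1) across head-to-head pairs was 0.24, 0.25 and 0.26 in control replicates 1 to 3 and 0.16, 0.18 and 0.18 in drought replicates 1 to 3. All 3 control plants were above all 3 drought plants, a difference that was not tested. Across same-strand pairs r was 0.0854 to 0.157 over the 6 plants, and across tail-to-tail pairs -0.0187 to 0.00639. With the filter on low values the head-to-head value was the highest of the 3 orientations in every plant, at a mean of 0.212 against 0.118 for same-strand pairs. The order of these means turned without that filter, at 0.138 against 0.218, and among pairs within 500 bases, at 0.221 against 0.275. Head-to-head pairs more than 1000 bases apart gave 0.0447 to 0.0754.

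**Figure D4:**
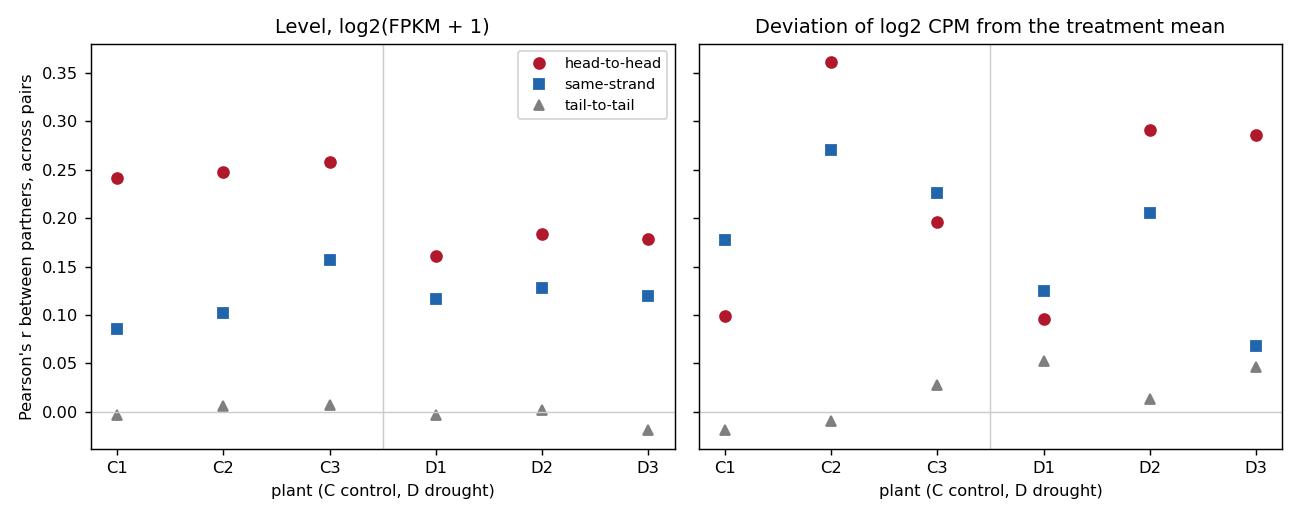
Pearson's r between partners across pairs 0 to 1000 bases apart, in each control (C) and drought (D) plant and for 3 orientations. The left panel is the level, where head-to-head pairs lie at 0.16 to 0.26 and above the others in all 6 plants, an order that turned for the mean without a filter on low values (0.138 against 0.218 for same-strand pairs) and within 500 bases (0.221 against 0.275). The right panel is the deviation of log2 CPM from the treatment mean.

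Partners also deviated together in single plants. The deviation of each gene's log2 CPM from the mean of its treatment correlated between head-to-head partners at 0.0984, 0.361 and 0.196 in control replicates 1 to 3. In drought replicates 1 to 3 it was 0.0963, 0.291 and 0.286. Same-strand pairs gave 0.0683 to 0.271 and tail-to-tail pairs -0.0194 to 0.0519. The head-to-head value was above the same-strand value in control replicate 2 and drought replicates 2 and 3, and below it in the other 3 plants, so neither orientation led throughout. It was highest in control replicate 2, where 33 partners deviated by more than 1 on the log2 scale, against 2 to 25 in the other plants.

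Within a pair the order of the levels was mostly stable. The same partner had the higher FPKM in all 6 plants in 99 of 134 head-to-head pairs (73.9%), 300 of 449 same-strand pairs (66.8%) and 603 of 849 tail-to-tail pairs (71.0%). The median size of the log2 ratio of the partners' FPKM was 1.44, 1.43 and 1.77. More than 8-fold differences were found in 25 head-to-head pairs (18.7%), against 20.5% of same-strand and 25.7% of tail-to-tail pairs. The order switched between all control and all drought plants in 3 head-to-head pairs, 12 same-strand and 31 tail-to-tail pairs. The 3 were ClCG03G001080 and ClCG03G001090, ClCG04G010350 and ClCG04G010360, and ClCG05G020210 and ClCG05G020220, named after their values were seen.

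In ClCG05G020210 the levels were 32.0, 46.6 and 30.5 FPKM in the control and 28.6, 25.2 and 20.2 FPKM under drought. In ClCG05G020220, 849 bases away, they were 20.3, 29.9 and 15.7 FPKM in the control and 30.2, 25.8 and 31.5 FPKM under drought. The former gene was the higher in all controls and the latter in all drought plants. Their log2 fold changes of -0.72 (SE 0.19, edgeR adjusted p = 0.0529) and 0.27 (SE 0.21, edgeR adjusted p = 0.428) missed the threshold.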

How the data were processed

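Read counts per gene, a signal (those counts after size-factor scaling), FPKM, and gene positions and lengths were deposited by the authors. The log2 fold changes and p-values deposited beside them are results of the authors' own comparison and were not used. The study's methods name HTSeq for counting against the Charleston Gray genome. The submitters' processing notes name fastp, HISAT2 2.1.0, featureCounts and DESeq2. The total read count per library was 17907062 to 22351455, and low genes are the least precise. Drought libraries carry another prefix in the deposited table and were matched by replicate number.

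Pairs were formed from the deposited positions of annotated genes. The members and lists were chosen with earlier results of these data known. Drought was compared with control, 3 plants each, by edgeR 4.0.16 under R 4.3.3 on the counts (TMM, filterByExpr with a minimum count of 10 and a total of 15, quasi-likelihood test, two-sided, Benjamini-Hochberg over 16318 genes, threshold 0.05). A standard error is the log2 fold change divided by the root of F. limma 3.58.1 tested log2 ratios of partners (CPM with a prior count of 2) over 1432 pairs. DESeq2 1.42.0 was an alternative. FPKM were used as log2 with a pseudocount of 1. Scripts were tested on simulated data.

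The text names pairs called for both partners, the 5 lowest adjusted p of the ratio test, the 3 highest levels, the 3 shortest gaps and pairs at the limits of the rule, and summarises other called members. Descriptions came by name from the study's tables of its called genes, 1 of them held in part. Deviations of same-numbered libraries correlated at r = 0.148, 0.430 and 0.130, each over the bound of 0.1. Control replicate 3, however, correlated more with drought replicate 1 (0.303), and no source names a shared block. The deviations of the 3 plants of a group sum to 0, so these values depend on each other. Whether the numbers pair the libraries was thus not settled. The main fits held no block, and the replicate number was a block only in an alternative fit. Sequences of the gaps were not analysed here.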

Additional observations from a re-analysis of the deposited data

How the results depend on the processing

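DESeq2 gave 4120 called genes in place of 2185, 53 called members in place of 27, and 34 same-strand pairs called in the same and 3 in opposite directions in place of 16 and 1. All 27 called members kept their sign in every setting and passed in DESeq2, 19 passed with library totals and 23 without a filter on low counts. With the replicate block 18 of the 27 passed, 23 members were called in all, 2334 genes were called, and 1 head-to-head pair was called for both partners in place of 2. The block gave 5 head-to-head pairs with a changed ratio in place of 6. Over the named genes and pairs, 328 results stayed on their side of the threshold, 157 lost it and 5 gained it.

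Leaving out single libraries gave 314 to 4357 called genes, 2 to 65 called members, 0 to 5 head-to-head pairs called in the same direction and 1 to 22 with a changed ratio. For same-strand pairs it gave 1 to 34 and 0 to 3 called in the same and in opposite directions, and 3 to 72 with a changed ratio. The largest counts came without control replicate 2, where 4357 genes and 65 members were called. Without control replicate 1 or drought replicates 1, 2 or 3, 3, 2, 5 and 2 of the 27 members passed, without control replicate 3 17 did and without control replicate 2 all 27. The head-to-head r was 0.350 to 0.507 and the share of the same sign 55.3% to 63.1%. For same-strand pairs they were 0.360 to 0.411 and 62.4% to 65.1%. The same-strand r was below the head-to-head r in 5 of the 6 fits, while rho and the share were above in all 6.

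Without a filter on low values, the head-to-head r was 0.238, its share of the same sign 59.8% and its r of levels 0.138, and the same-strand values were 0.311, 63.5% and 0.218, which turned the order of the levels, as did pairs within 500 bases (0.221 head-to-head). Spearman's rho was 0.259 and 0.411. The head-to-head share was 63.4% with library totals. Pairs within 500 bases gave 0 head-to-head pairs called for both partners and 2 with a changed ratio. Few were tested, 49 under 250 bases and 28 from 250 to under 500 bases, against 106 and 73 same-strand pairs. Over all adjacent pairs 1.64% were called in the same direction, and the ratio changed in 7.89% of all pairs tested. The 0 among so few pairs therefore does not show a lack of joint change at short gaps. Same-strand values within 500 bases were 9, 0, 8, r 0.585, 72.2% and r of levels 0.275. They stand for called in the same and opposite directions, changed ratio, change, sign and level. The edgeR interaction test gave 17 same-strand pairs with a changed ratio. Weighting same-strand pairs to the head-to-head distances gave 0.641 pairs called in opposite directions, r 0.498, 68.2% and r of levels 0.169. Tail-to-tail pairs in their place gave 9, 2, 80, 0.150, 51.5%, -0.00182 and r of deviations 0.0182. Chosen after seeing the data were the r without called pairs (0.294 head-to-head, 0.331 same-strand), without the 5 largest changes (0.281) and without same-strand pairs that have a further gene over the gap (0.462).

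With 3 plants a group and 65 of 199 pairs lacking a tested partner, agreement could be read only for the better expressed pairs.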

Other observations

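The 69 members that did not pass the filter on low counts had a median of 12 counts over the 6 libraries and a maximum of 255. The maximum was ClCG08G004050, with 8, 149 and 0 counts in the control and 4, 92 and 2 under drought. Of the 69, 12 were at 0 in all control plants and 15 at 0 in all drought plants. The same shares were not formed for other untested genes. ClCG06G000930, described as a receptor-like protein kinase and named after its values were seen, had 0 counts in each control plant and 15, 13 and 3 under drought.

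Among head-to-head pairs that overlapped, both partners were tested in 107. Their log2 fold changes correlated at 0.18, with the same sign in 59.8%. No pair was called for both partners by edgeR, which called 1.64% of all adjacent pairs in the same and 0.597% in opposite directions. At an unadjusted p below 0.05 in edgeR, 3 of the 107 were past it in the same direction and 1 in opposite directions. Over all adjacent pairs the shares were 6.73% and 4.17%, and the difference was not tested.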
